A study of Mus musculus with 6 samples.

Results

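Hyaluronan is a long sugar polymer of the extracellular matrix that is spun out through the plasma membrane by the hyaluronan synthases (*Has1*, *Has2*, *Has3*). It is cut by hyaluronidases such as *Hyal1* and *Hyal2*, to whose family *Hyal3* belongs, and by the hyaluronan-binding depolymerase *Cemip*. CD44 is its main cell surface receptor. Long chains are known for holding water and keeping tissue open, whereas short fragments are known for signaling during injury, and CD44 is found on Schwann cells (SCs), where it associates with the neuregulin receptor ErbB2. These 8 genes were looked up by symbol through their Ensembl identifier in the exon count table of cultured SCs, and all 8 were present among its 55401 genes and among the 22318 genes that were tested.

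The libraries come from SCs cultured from dorsal root ganglia of adult mice, 3 WT and 3 *Plxnb1*-/- (PB1 -/- in the labels). Plexin-B1 is a semaphorin receptor, and the mutant allele carries a transmembrane-lacZ-neo trap cassette inserted into *Plxnb1* in all cells of the animal, on a C57BL/6 background. The labels call the controls WT, whereas the methods of the study allow both WT and heterozygous littermates as controls in general. All cultures were grown with forskolin, neuregulin and serum and depleted of Thy1-positive fibroblasts. Every value below therefore describes whole SC cultures under growth factors, with any other cells they held, also where the text says SCs. Age beyond adult and sex are not given in the sources used here, and no source says whether a culture pooled animals. p-values therefore measure the spread between cultures.

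Total counts per library lay between 59252048 and 77280964. *Plxnb1* measured 61.8, 45.4, and 96.4 CPM (read counts scaled to library size with TMM factors) in the WT cultures against 13.1, 16.6, and 18.6 CPM in the mutant cultures, each in the order of replicates 1, 2, and 3, as are all such values here. These counts sum over all exons of *Plxnb1*, and the paper reports that exons past the inserted cassette lost their expression in mutant SCs. Among the SC markers, *Sox10*, a transcription factor of the lineage, lay between 432 and 580 CPM and *S100b* between 7.09 and 8.22 CPM. The sum of 10 SC markers lay between 2640 and 3150 CPM in WT and between 3190 and 3600 CPM in *Plxnb1*-/- cultures. Fibroblast transcripts were also present, and the sum of 8 fibroblast markers lay between 5530 and 7270 CPM in WT and between 5160 and 5440 CPM in *Plxnb1*-/- cultures, with WT replicate 2 highest. Most of this sum was *Col3a1*. The sum of 8 macrophage markers lay between 30.2 and 34.1 CPM in WT and between 34.5 and 39.8 CPM in *Plxnb1*-/- cultures, and that of 8 neuron markers between 139 and 154 CPM in WT and between 155 and 172 CPM in *Plxnb1*-/- cultures, most of it *Tubb3*. None of these 4 sums overlapped between the genotypes. All 8 macrophage and all 8 neuron markers were at higher mean levels in *Plxnb1*-/- cultures, as were 9 of 10 SC markers, and 6 of 8 fibroblast markers were at lower ones. edgeR and DESeq2 called 0 of these genes, against 0.0358% and 1.5% of all tested genes. An unadjusted p below 0.05 from edgeR in that direction was reached by 2, 1, 8 and 3 of them, in this order. Of all tested genes, 6.95% reached it as higher and 6.78% as lower. In RNA of whole cultures, more cells of a type and more RNA per cell cannot be told apart.

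The question for these genes was whether the making, cutting or binding of hyaluronan differs between SCs with and without Plexin-B1 at the level of RNA. From these same data, the paper already lists hyaluronan metabolism among the processes of genes up-regulated in *Plxnb1*-/- SCs. Of the 8 genes, edgeR's quasi-likelihood test called 1, the hyaluronidase *Hyal1*, which was higher in *Plxnb1*-/- SCs, where edgeR called 0.0358% of all tested genes in either direction, 0.00448% as higher and 0.0314% as lower (a call needs an adjusted p below 0.05 over all genes together with a log2 fold change beyond 0.25 either way). DESeq2, the tool of the study's methods, called 3, *Hyal1*, *Hyal3* and *Cemip*, all higher, against 1.5% of all tested genes. The WT and *Plxnb1*-/- values did not overlap for the same 3 genes, all higher in *Plxnb1*-/-, where 19.7% of all tested genes had no overlap, 9.3% higher and 10.4% lower. The 3 synthases, *Hyal2* and *Cd44* had overlapping genotypes. The median log2 fold change of the 8 genes was −0.03, and that of all tested genes 0.00496. These 8 genes were chosen with earlier results of these data known, and *Hyal1* and *Hyal3* share exon bases. The counts of genes above are therefore descriptive only.

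**Figure D1:**
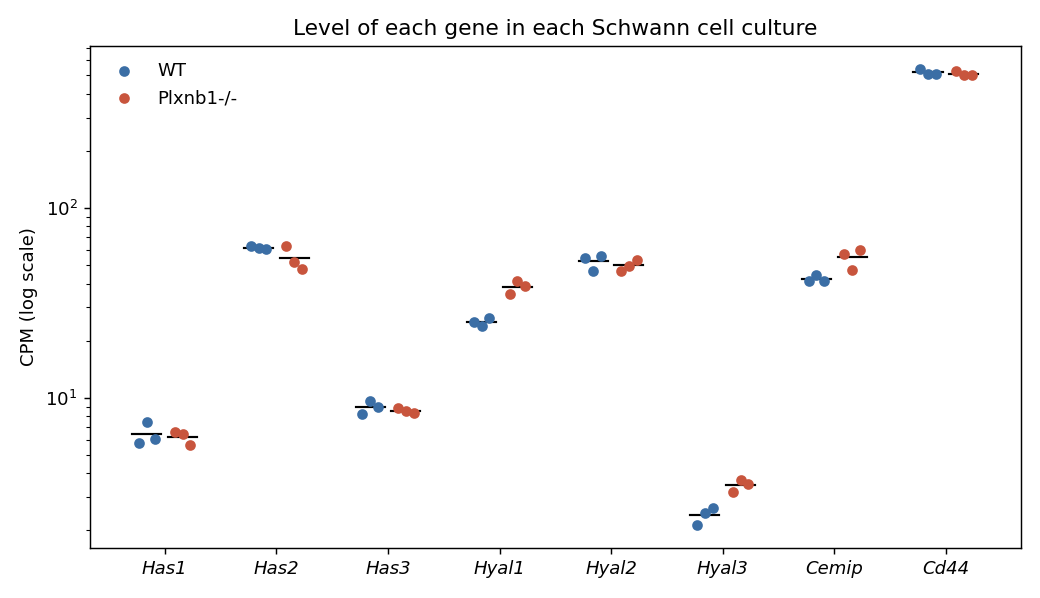
CPM of each gene in each culture, on a log axis, with 3 WT and 3 *Plxnb1*-/- points per gene and a bar at each mean. The genotypes separate for *Hyal1*, *Hyal3* and *Cemip* and overlap for the other 5 genes, and *Cd44* lies far above the rest.

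**Figure D2:**
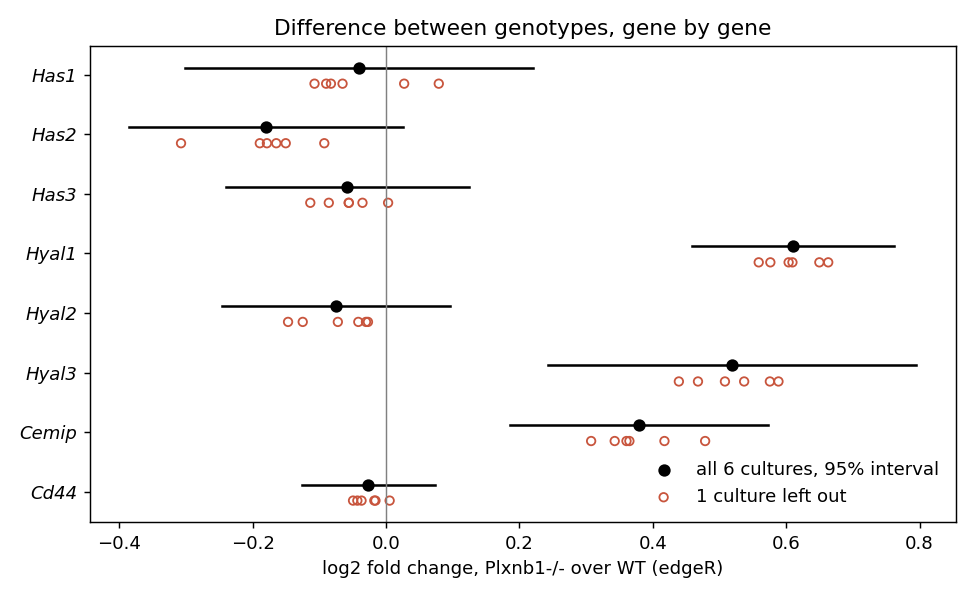
Log2 fold change of each gene in *Plxnb1*-/- over WT from edgeR, with its 95% interval over all 6 cultures (black) and the 6 values with 1 culture left out (open circles). The interval of *Hyal1* runs from 0.46 to 0.76, and the open circles of *Has1*, *Has3* and *Cd44* fall on both sides of 0.

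The synthases add sugars from UDP-glucuronic acid and UDP-N-acetylglucosamine in turn, and *Has2* is the one best known from development. *Has2* (chromosome 15, 56665627 to 56694539, minus strand of GRCm38) measured 62.7, 61.4, and 60.9 CPM in the WT cultures against 63.4, 52.2, and 47.6 CPM in the mutant cultures. The WT cultures were close together, and *Plxnb1*-/- replicate 1 lay above all of them while the other two *Plxnb1*-/- cultures lay below. The difference did not pass the test (log2 fold change −0.18, 95% interval −0.38 to 0.03, adjusted p = 0.416 from edgeR). Without *Plxnb1*-/- replicate 1 it was −0.31, and without *Plxnb1*-/- replicate 3 it was −0.09. A fall below 0.766 times the WT level lies outside the interval.

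*Has1* (chromosome 17) ranged from 5.78 to 7.43 CPM in WT and from 5.63 to 6.62 CPM in *Plxnb1*-/- SCs. *Has3* (chromosome 8) ranged from 8.17 to 9.62 CPM in WT and from 8.28 to 8.84 CPM in *Plxnb1*-/- SCs. Both spans of *Plxnb1*-/- values lay mostly within those of WT. Their log2 fold changes were −0.04 (95% interval −0.30 to 0.22) and −0.06 (95% interval −0.24 to 0.12), with adjusted p = 0.908 and 0.793 from edgeR, and both changed sign without WT replicate 2. None of the 3 synthases had an unadjusted p below 0.05, and DESeq2 called none of them. Per kilobase of exon that no other gene shares, *Has2* made up 84.0 ± 1.55% of the synthase reads in WT and 82.6 ± 1.37% in *Plxnb1*-/- SCs (SD, n = 3), a difference within the spread (exact two-sided permutation test, p = 0.3, adjusted p = 0.375 over 5 ratios). *Has2* shares 182 exon bases with its antisense partner *Has2os* and *Has3* shares 352 with *Chtf8* on the opposite strand, and the strand setting of the counting is not given in the sources used here. *Has2os* measured between 2.95 and 3.12 CPM per kb in WT and between 2.81 and 3.28 in *Plxnb1*-/- SCs.

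*Hyal1*, *Hyal2* and *Hyal3* sit side by side on chromosome 9 (plus strand, GRCm38), which also holds *Plxnb1*, whose gene starts 1.52 Mb beyond *Hyal1*. Whether differences at these genes follow from loss of Plexin-B1 or from their place near the modified gene was not tested. *Hyal1* runs from 107576927 to 107581710, *Hyal2* from 107567945 to 107572779, and *Hyal3* from 107580818 to 107587359. *Hyal1* encodes a lysosomal enzyme that cuts hyaluronan into short chains, and *Hyal2* a protein anchored in the outer leaflet of the plasma membrane that makes longer fragments.

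*Hyal1* measured 25.1, 23.8, and 26.5 CPM in the WT cultures against 35.4, 41.0, and 38.7 CPM in the mutant cultures. The lowest mutant value stood clear of the highest WT value by more than either genotype spanned. *Hyal1* was 1.53 times higher in *Plxnb1*-/- SCs (95% interval 1.37 to 1.70), which is 0.61 ± 0.07 (SE) on the log2 scale, with an adjusted p of 0.0262 from edgeR. It was the only gene that edgeR called as higher among all 22318 tested. In each of the 6 fits without 1 culture the log2 fold change stayed between 0.56 and 0.66. The call was kept without WT replicate 2 (adjusted p = 0.0202 from edgeR) and without *Plxnb1*-/- replicate 1 (adjusted p = 0.0434 from edgeR). It was lost without WT replicate 1 (adjusted p = 0.0886 from edgeR), WT replicate 3 (0.105), *Plxnb1*-/- replicate 2 (0.138) or *Plxnb1*-/- replicate 3 (0.125). DESeq2 gave *Hyal1* an adjusted p of 3.59e-11. The SC, macrophage and neuron marker sums were also higher and the fibroblast sum lower in all *Plxnb1*-/- cultures, and their part in the difference was not tested. Without WT replicate 2, the culture with the most fibroblast marker RNA, the log2 fold change of *Hyal1* was 0.58. WT replicates 1 and 3 still had a lower SC sum and a higher fibroblast sum than every *Plxnb1*-/- culture.

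Because *Hyal1* was the only member called by edgeR, the sequence just before its start is shown, and that of *Cemip*, the DESeq2 call outside chromosome 9, is set beside it. Each stretch of 227 bases runs from 250 to 24 bases before the RefSeq start (GRCm38.p6), which ends it just before the GENCODE start of *Hyal1*, 5′ to 3′ on the strand of the gene, and capitals mark matches on either strand to the box GGGCGG, known for binding of Sp1, or to the box TATAAA of some core promoters. *Hyal1* is at chr9:107576700-107576926 on the plus strand and *Cemip* at chr7:84086529-84086755 on the minus strand.
Hyal1: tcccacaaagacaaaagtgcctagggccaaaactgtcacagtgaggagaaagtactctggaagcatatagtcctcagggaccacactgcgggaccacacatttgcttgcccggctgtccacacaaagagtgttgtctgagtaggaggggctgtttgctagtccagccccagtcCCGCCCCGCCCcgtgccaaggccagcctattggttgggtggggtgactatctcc
Cemip: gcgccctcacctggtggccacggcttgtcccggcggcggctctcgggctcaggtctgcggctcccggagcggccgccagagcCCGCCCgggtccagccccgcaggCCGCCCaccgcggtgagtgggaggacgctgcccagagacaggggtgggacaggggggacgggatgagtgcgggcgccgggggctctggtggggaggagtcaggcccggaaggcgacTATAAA

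The *Hyal1* stretch has 56.8% G and C and the *Cemip* stretch 75.3%, against a median of 52.0% over all 32851 stretches of this length. Both hold GGGCGG on the reverse strand 2 times, with the pair in *Hyal1* overlapping by its outer base, and 29.4% of all stretches hold it. Only *Cemip* holds TATAAA, found in 11.4% of all stretches. The E-box CACGTG was searched on both strands and matched in neither, and 5.23% of all stretches hold it. The AP-1 site TGANTCA likewise matched in neither, and 6.28% of all stretches hold it. These are matches of letters. Of the 8 genes, 6 had an entry in the RefSeq table, and *Has2* and *Has3* did not.

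*Hyal3* measured 2.14, 2.48, and 2.64 CPM in the WT cultures against 3.18, 3.71, and 3.52 CPM in the mutant cultures, on raw counts of 137 to 269. All *Plxnb1*-/- cultures were above all WT cultures. Its log2 fold change was 0.52 (standard error 0.12, 95% interval 0.24 to 0.79, adjusted p = 0.266 from edgeR), and DESeq2 called it (adjusted p = 0.0372). The RefSeq start of *Hyal3*, at 107581296, and that of *Naa80*, at 107580669, both fall within an exon of *Hyal1*. *Naa80* encodes the enzyme that acetylates the N terminus of actin.

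The 3777 exon bases of *Hyal1* share 1920, or 50.8%, with *Naa80* and 159, or 4.21%, with *Hyal3*, all on the same strand, so strand cannot separate them. How the counting treated reads on shared bases is not given in the sources used here. *Naa80* measured 37.9, 34.9, and 39.5 CPM in the WT cultures against 42.1, 47.9, and 46.7 CPM in the mutant cultures, also without overlap. It differed by 0.28 on the log2 scale (adjusted p = 0.266 with edgeR and 0.0194 with DESeq2), less than *Hyal1*. The ratio of *Hyal1* to *Naa80* reads was 0.671 ± 0.0109 in WT and 0.842 ± 0.0147 in *Plxnb1*-/- SCs (SD, n = 3; exact two-sided permutation test, p = 0.1, the smallest that 3 against 3 allows, adjusted p = 0.167 over 5 ratios). All 3 mutant ratios lay above all WT ratios. The ratio of *Hyal1* to *Hyal3* reads was 10.5 ± 1.11 in WT and 11.1 ± 0.0584 in *Plxnb1*-/- SCs (exact permutation test, p = 0.4, adjusted p = 0.4 over 5 ratios). With the counts of *Hyal1*, *Naa80* and *Hyal3* summed to 1 feature, the log2 fold change was 0.43 and the call was lost (adjusted p = 0.129 from edgeR).

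*Hyal2* lies just before *Hyal1* and shares no exon bases with another annotated gene. Its values were 54.7, 46.8, and 55.8 CPM in the WT cultures against 46.5, 49.7, and 53.3 CPM in the mutant cultures. The genotypes overlapped throughout, at −0.07 on the log2 scale (95% interval −0.25 to 0.10, adjusted p = 0.701 from edgeR). With single cultures left out it ran from −0.15 (without WT replicate 2, adjusted p = 0.511 from edgeR) to −0.03 (without WT replicate 3). The share of *Hyal1* among all reads of *Hyal1*, *Hyal2* and *Hyal3* was 31.5 ± 1.03% in WT and 41.9 ± 1.49% in *Plxnb1*-/- SCs (SD, n = 3; exact two-sided permutation test, p = 0.1, adjusted p = 0.167 over 5 ratios). The lowest *Plxnb1*-/- share, 40.5%, was above the highest WT share, 32.6%. This p is the smallest possible, and the share restates the values of the same 3 genes given above.

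*Cemip* (chromosome 7, 83932857 to 84086502, minus strand) encodes a hyaluronan-binding protein required for hyaluronan breakdown in skin fibroblasts. Its values were 41.3, 44.3, and 41.2 CPM in the WT cultures against 57.4, 47.1, and 60.3 CPM in the mutant cultures. *Plxnb1*-/- replicate 2 lay close to the WT cultures, and the others were well above. The log2 fold change was 0.38 (standard error 0.09, 95% interval 0.19 to 0.57), with an adjusted p of 0.266 from edgeR and 0.00817 from DESeq2. Leaving out single cultures kept it between 0.31 and 0.48. *Cemip2*, a transmembrane relative that also degrades hyaluronan, measured between 122 and 145 CPM in WT and between 145 and 149 CPM in *Plxnb1*-/- SCs, without overlap (log2 fold change 0.11, adjusted p = 0.491 from edgeR).

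*Cd44* (chromosome 2, 102811141 to 102901665, minus strand) measured 542, 511, and 509 CPM in the WT cultures against 525, 505, and 503 CPM in the mutant cultures. The genotypes overlapped, and all 6 cultures stayed within a narrow range. The log2 fold change was −0.03 with the narrowest interval of the 8 genes, −0.13 to 0.07 (adjusted p = 0.831 from edgeR), so that a level below 0.916 or above 1.05 times WT lies outside it. The counts sum over all exons and do not separate the splice forms of *Cd44*.

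Levels between genes were compared as CPM per kilobase of unshared exon. *Cd44* stood highest at 76.8 ± 2.76 in WT and 75.4 ± 1.81 in *Plxnb1*-/- SCs (SD, n = 3), above 96.6% of the 21596 tested genes with a known length. In WT, *Hyal2* (15.9 ± 1.49), *Has2* (15.2 ± 0.240) and *Hyal1* (13.8 ± 0.729) followed. *Hyal2* overlapped both of the others, whereas the lowest *Has2* value lay above the highest *Hyal1* value. *Cemip* (3.45 ± 0.145) came next, and *Has3* (1.48 ± 0.120), *Has1* (1.42 ± 0.196) and *Hyal3* (1.35 ± 0.142) were lowest and overlapped each other. In *Plxnb1*-/- SCs the order at the top changed to *Hyal1* (21.1 ± 1.57), *Hyal2* (15.1 ± 1.02) and *Has2* (13.4 ± 2.00), with every *Hyal1* value above every *Hyal2* value and with *Hyal2* and *Has2* overlapping. The place of *Hyal1* depends on the length used, since over its full exons it had 6.65 CPM per kb in WT and 10.2 in *Plxnb1*-/- SCs, below *Hyal2* and *Has2* in both.

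Across the 6 cultures the log2 CPM of *Hyal1* and *Hyal3*, which share exons, had a Pearson's r of 0.953, *Has1* and *Has3* 0.883, and *Hyal1* and *Cemip* 0.740, while *Has1* and *Hyal2* had −0.841. These values describe 6 libraries and include the difference between genotypes. Among 14992 genes with a mean of at least 1 CPM, those with the highest r were *Gm11747* (0.9953) and *Ptpra* (0.9928) for *Hyal1*, *Ank* (0.9887) and *Mturn* (0.9814) for *Hyal3*, and ENSMUSG00000118537 (0.9868) and *Serp2* (0.9816) for *Hyal2*. For *Cemip* they were *C130071C03Rik* (0.9956) and *Gm5421* (0.9934), and for *Cd44* *Zfp975* (0.9864) and *Ankrd49* (0.9785). For the synthases they were *Lamtor5* (0.9871) and *Sfrp1* (0.9842) with *Has2*, *Dlat* (0.9938) and *Gpatch3* (0.9873) with *Has1*, and *Lrrc32* (0.9938) and *Fzd4* (0.9926) with *Has3*. With this many genes and so few libraries, the highest r is near 1 for every member.

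The region was then followed on both sides of the hyaluronidase genes. Within 250 kb of the span of *Hyal1* and *Hyal2* the annotation holds 33 genes, of which 26 were tested. edgeR called *Hyal1* alone, and DESeq2 called 5, *Hyal1*, *Hyal3*, *Naa80*, *Sema3b* and *Hemk1*, all higher, where DESeq2 called 0.69% of all tested genes as higher. An unadjusted p below 0.05 was reached by 7 higher and 2 lower genes of the 26, against 6.95% and 6.78% of all tested genes. *Hyal1*, *Hyal3* and *Naa80* share exon bases, so these counts of genes may rest in part on the same reads.

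*Sema3b*, a secreted semaphorin 20.7 kb beyond the start of *Hyal1*, measured 418, 378, and 422 CPM in the WT cultures against 483, 576, and 574 CPM in the mutant cultures (log2 fold change 0.42, adjusted p = 0.199 from edgeR). *Gnai2*, a G protein subunit gene next beyond *Sema3b* and also named after its values were seen, measured between 600 and 613 CPM in WT and between 653 and 687 CPM in *Plxnb1*-/- SCs, without overlap (0.15 on the log2 scale, adjusted p = 0.273 from edgeR and 0.0449 from DESeq2, below the fold needed for a call). *Hemk1*, a methyltransferase gene at the edge of the region beyond *Hyal2* and named after its values were seen, was at 0.75 on the log2 scale (adjusted p = 0.273 from edgeR). *Ifrd2*, which starts right after *Hyal3*, had the opposite sign, −0.19 (adjusted p = 0.293 from edgeR), with values that did not overlap. *Gnat1* had the other small p among the lower genes, with no more than 0.125 CPM in any library, close to the 0.0383 to 0.0513 CPM that 3 counts are worth here, a limit for counting error only. *Tusc2* and *Rassf1*, on the other side of *Hyal2* (both named after their values were seen), had log2 fold changes of 0.03 and 0.04.

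**Figure D3:**
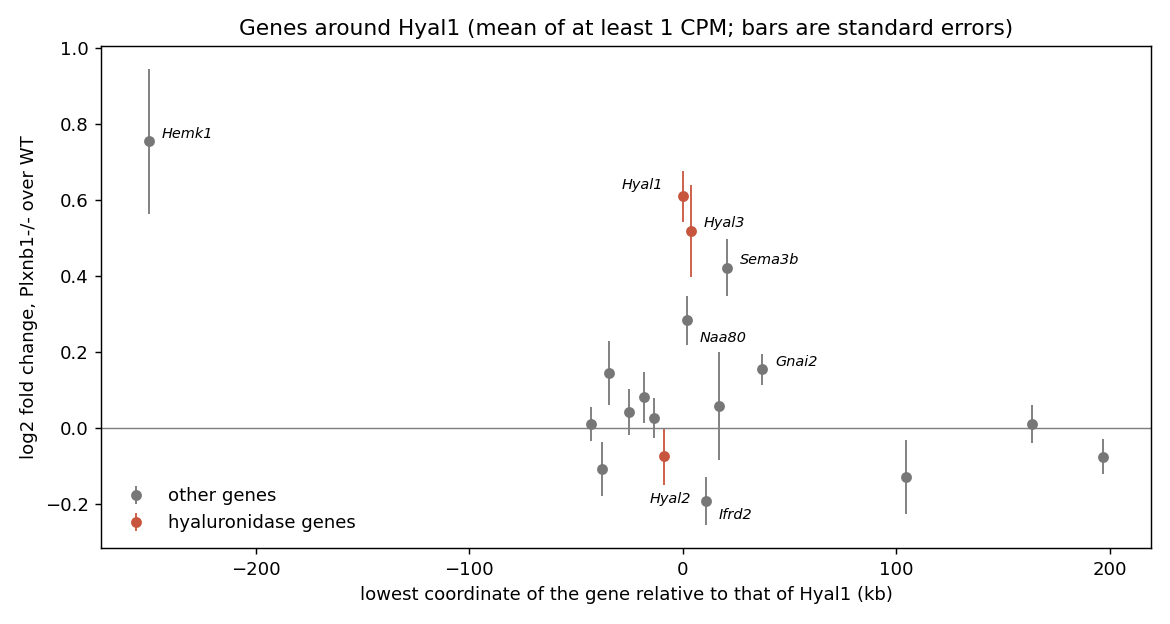
Log2 fold change with its standard error for the 18 tested genes around *Hyal1* with a mean of at least 1 CPM, against the position of each gene's lowest coordinate relative to that of *Hyal1*, in kb. *Hyal1* (0.61) and *Hyal3* (0.52) stand with *Sema3b* (0.42) and *Naa80* (0.28) above 0, *Hyal2* (−0.07) lies just before them near 0, and *Hemk1* (0.75) lies apart.

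Other genes of hyaluronan were read from lists of 51 genes, of which 44 were tested. edgeR called 0 of the 44, while 7 higher and 6 lower genes had an unadjusted p below 0.05, against 6.95% and 6.78% of all tested genes. DESeq2 called 2, *Vcan* and *Mmp9*, both lower, against 1.5% of all tested genes in either direction. The median log2 fold change was 0.01, close to that of all tested genes.

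Of the 7 genes that make the UDP-sugar precursors, 2 were higher and 5 lower in *Plxnb1*-/- SCs (median −0.10), and 2 lower genes had an unadjusted p below 0.05, against 6.78% of all tested genes. *Gfpt1*, the rate-limiting enzyme of the hexosamine pathway, measured between 129 and 135 CPM in WT and between 114 and 129 CPM in *Plxnb1*-/- SCs (log2 fold change −0.14, adjusted p = 0.324 from edgeR). *Gfpt2*, its relative, had −0.27 (adjusted p = 0.364 from edgeR). *Ugdh*, which makes UDP-glucuronic acid, had 0.10 (adjusted p = 0.371 from edgeR), and *Uap1* 0.03.

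The remaining degradation genes were read next. *Hyal4* and the sperm hyaluronidases *Hyal5* and *Spam1* had 0.00 CPM in every library and were not tested, and *Hyal6*, also of testis, reached no more than 0.03 CPM. *Gusb*, a lysosomal enzyme that trims the fragments, measured between 103 and 106 CPM in WT and between 101.5 and 106 CPM in *Plxnb1*-/- SCs (log2 fold change −0.02, adjusted p = 0.859 from edgeR).

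Among 7 other receptors, 5 were higher and 2 lower. *Layn*, a membrane protein that binds hyaluronan, measured 51.5, 39.9, and 46.5 CPM in the WT cultures against 51.9, 55.4, and 55.7 CPM in the mutant cultures (log2 fold change 0.24, adjusted p = 0.296 from edgeR). WT replicate 2 was lowest, and the nearest cultures of the genotypes almost met. *Hmmr*, a hyaluronan binding protein of dividing cells, had 0.25 (adjusted p = 0.315 from edgeR). *Lyve1*, the receptor of lymphatic vessels and some macrophages, measured between 2.43 and 2.84 CPM in WT and between 1.76 and 1.99 CPM in *Plxnb1*-/- SCs (log2 fold change −0.51, adjusted p = 0.266 from edgeR). *Stab2* stayed at or below 0.203 CPM.

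Of 16 matrix proteins that bind hyaluronan, 14 were tested, 6 higher and 8 lower. *Vcan*, the proteoglycan versican, measured 343, 450, and 370 CPM in the WT cultures against 323, 309, and 309 CPM in the mutant cultures. Its log2 fold change was −0.31 (adjusted p = 0.273 from edgeR, 0.0419 from DESeq2), and its highest value was in WT replicate 2, the culture with the most fibroblast marker RNA, whose part was not tested. *Itih5*, a relative of the heavy chains that are linked to hyaluronan, measured 697 to 778 CPM in WT and 759 to 904 CPM in *Plxnb1*-/- SCs (log2 fold change 0.17, adjusted p = 0.339 from edgeR). *Ptx3* differed by 0.41 on the log2 scale and *Acan* −0.54, each below 5 CPM in all cultures, with adjusted p = 0.400 and 0.465 from edgeR.

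Of 13 partners, proteases and splicing factors of CD44, 12 were tested, 6 higher and 6 lower (median 0.01). *Erbb2* measured 151, 123, and 155 CPM in the WT cultures against 160, 177, and 187 CPM in the mutant cultures (log2 fold change 0.29, adjusted p = 0.286 from edgeR). *Met* had 0.42 (adjusted p = 0.339 from edgeR), with overlap between the genotypes. *Mmp9*, a protease that docks on CD44, measured 5.42, 10.5, and 6.98 CPM in the WT cultures against 3.62, 5.28, and 3.61 CPM in the mutant cultures (log2 fold change −0.87, adjusted p = 0.273 from edgeR, 0.00955 from DESeq2), again highest in WT replicate 2. *Mmp14*, which sheds CD44, had −0.12 (adjusted p = 0.322 from edgeR). The linkers of CD44 to actin showed small differences, with log2 fold changes of 0.12 for *Ezr*, −0.02 for *Msn* and −0.01 for *Rdx*. *Nf2*, the gene of merlin and listed as another partner of CD44, had 0.03. These 4 genes were named after their values were seen.

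**Figure D4:**
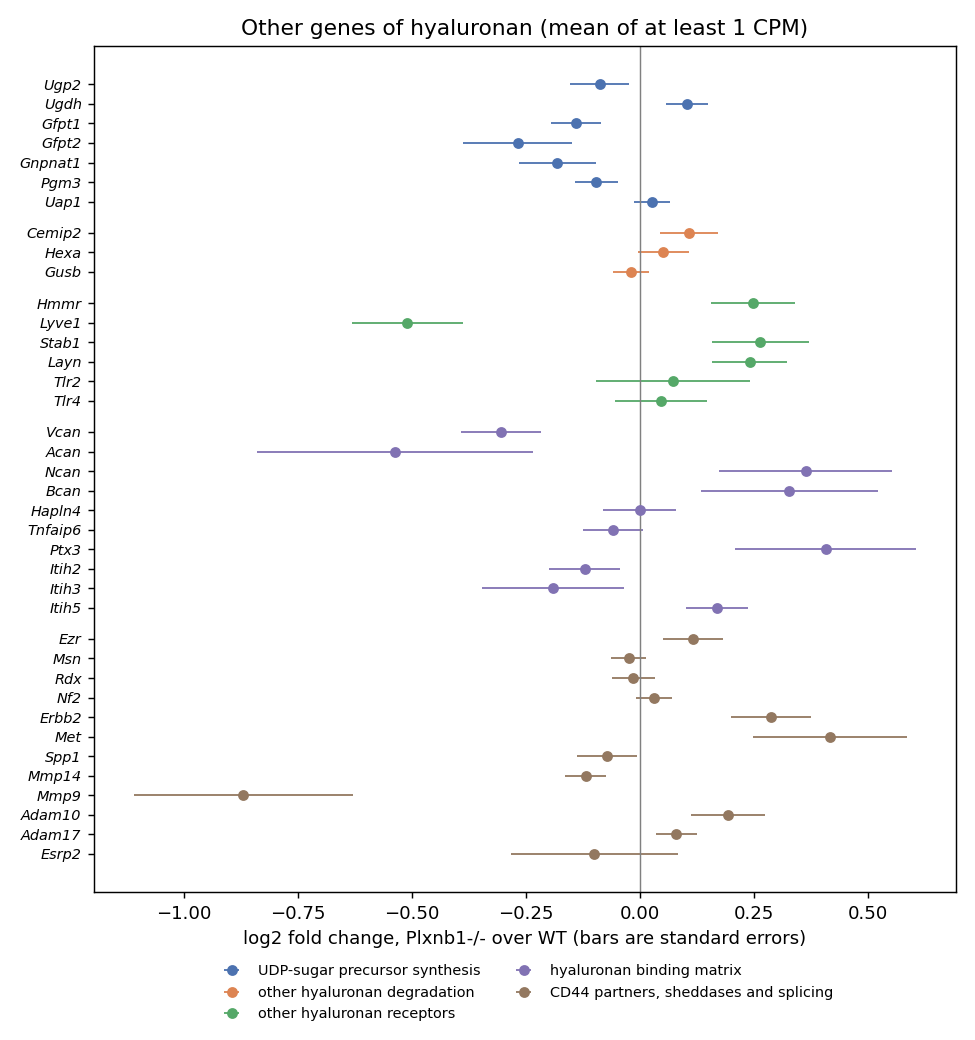
Log2 fold change with its standard error for 38 genes of the hyaluronan lists with a mean of at least 1 CPM, colored by list (6 of the tested genes are not drawn). Most points lie within 0.3 of 0 on either side, and *Mmp9* (−0.87), *Acan* (−0.54) and *Lyve1* (−0.51) lie lowest.

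The deposited FPKM values are the same counts divided by the library total and a fixed length per gene, so they are no second measurement. Their order of genotypes was therefore largely set in advance, and it was the same for the 8 genes. *Hyal1* stood at 5.23 ± 0.301 in WT and at 8.05 ± 0.550 FPKM in mutant cultures (SD, n = 3), *Hyal3* 0.368 ± 0.0378 and 0.533 ± 0.0377 FPKM, and *Cemip* 0.274 ± 0.00960 and 0.359 ± 0.0459 FPKM. Exact two-sided permutation of the labels over log2(FPKM + 0.1) gave p = 0.1, the smallest possible value, for these 3 genes and between 0.4 and 0.9 for the other 5. The length behind each value equals the whole span of the gene, 4784 bases for *Hyal1* and 153646 for *Cemip*, introns included, so FPKM values do not compare one gene with another.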

How the data were processed

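Primary SCs of 3 WT and 3 *Plxnb1*-/- cultures were profiled by poly(A) RNA-seq with a stranded kit. The authors trimmed reads (Trim Galore 0.6.5), aligned them to mm10 with Bowtie2 2.4.1, an aligner that does not place reads across introns, removed duplicates with SAMtools 1.10, and deposited raw counts per gene over exons (featureCounts) and FPKM values; versions are those of the submitters' processing notes. Symbols and positions come from GENCODE M21 (GRCm38), an earlier release than the authors' M25, and 55141 of 55401 identifiers matched.

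The 22318 genes that reached 2 counts in 5 or more of the 6 libraries entered edgeR 4.0.16 (R 4.3.3; TMM, quasi-likelihood, a model of genotype alone), with Benjamini-Hochberg adjustment over all tested genes. DESeq2 1.42.0 and limma 3.58.1 were alternatives. The F statistic of edgeR gave the standard errors and 95% intervals. The fit was tested on simulated data. Tables were made with Python 3.11.15 and pandas 2.3.3.

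The members and lists were chosen with earlier results of these data known. Named are the 8 members, *Plxnb1*, genes sharing exons with a member, the called genes and the 2 smallest p-values in each direction of every list and of the region, and the 2 genes with the highest r per member. A gene that this rule would name is not reported here. SC, fibroblast, macrophage, neuron, endothelial and mural marker lists were summed. Endothelial markers summed to 57.2 to 76.6 CPM in WT and 60.4 to 66.3 CPM in *Plxnb1*-/- cultures, and mural markers to 498 to 607 and 463 to 505 CPM. Replicate numbers do not pair the cultures in any source.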

Additional observations from a re-analysis of the deposited data

How the results depend on the processing

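edgeR called 8 genes in all. DESeq2 called 335, edgeR without a filter on low counts 296, with at least 1 CPM in 3 libraries 5, limma on log2(FPKM + 0.1) 4 and on log2(FPKM + 1) 3, and limma voom with sample weights, chosen after seeing the data, 13. Of the 8 hyaluronan genes these called 3 under DESeq2, 2 without a filter and 0 with either limma fit on FPKM, of the wider list 2 under DESeq2 and 1 without a filter, and of the genes around *Hyal1* 5, 4 and 0. With single cultures left out, the counts ran from 4 (without *Plxnb1*-/- replicate 2 or 3) to 25 (without WT replicate 2) for all genes, from 0 to 1 for the members, from 0 to 2 around *Hyal1* and stayed at 0 for the wider list. *Hyal1* kept a positive log2 fold change under all 17 alternatives (0.43 to 0.66) and lost its call in 8. *Has1* ran from −0.107 to 0.0790 (0.0271 without *Plxnb1*-/- replicate 3), *Has3* from −0.11 to 0.00304 and *Cd44* from −0.0495 to 0.00535 with single cultures left out, and *Has1* was 0.0020 under voom. The cause was not tested. Other size factors and edgeR's newer dispersion estimate, also added after seeing the data, left 8 genes and *Hyal1* called.

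With the replicate number as a block, edgeR called 5 genes, 0 members and 0 genes around *Hyal1* (*Hyal1*, adjusted p = 0.0838). Deviations of cultures with the same number had correlations of −0.0218, 0.00782 and 0.0653, and those with different numbers ran from −0.053 to 0.0485. With so few cultures, these values cannot decide whether the numbers pair them. *Stab2* and *Gnat1* lay near the 0.0383 to 0.0513 CPM that 3 counts are worth, so their values rest on few reads.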
